A study of Mus musculus with 2 samples.

Results

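The 10 genes described here modulate Wnt signalling and were taken by symbol: Sfrp1, Sfrp2, Sfrp4, Frzb, Wif1, Dkk2, Dkk3, Apcdd1, Notum and Axin2, out of 34285 genes counted. All 10 were found in both libraries. Single cells came from the molar region of C57BL/6J mice at PN15.5 (postnatal day). The Lipo-Clo mice had been given clodronate liposomes, which kill macrophages that take them up, at 40 μg/g by intraperitoneal injection at PN3.5, again at PN6.5 and PN9.5, and last at PN12.5, and the Lipo-PBS mice received vehicle liposomes on the same days. Each condition is 1 library, and the number of mice behind a library is not given in the sources used here. No test between conditions was therefore possible, and no value below has a replicate check. Intervals are at the 95% level and cover counting error only.

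Wnt ligands carry a lipid and bind Frizzled receptors together with the co-receptors Lrp5 and Lrp6, which stabilises β-catenin and lets it act with TCF/LEF factors in the nucleus. Several layers of inhibitors hold the pathway in check. The Sfrp proteins and Frzb carry a Frizzled-like domain and bind Wnt ligands outside the cell, and Wif1 binds ligands through a domain of its own. Dkk2 acts on the co-receptors, while Dkk3 is a divergent relative whose part in Wnt signalling is less settled. Notum removes the lipid from the ligand. Not all 10 are secreted: Apcdd1 is a membrane glycoprotein, and Axin2 is a cytoplasmic scaffold of the β-catenin destruction complex that is itself a widely used Wnt target gene. In teeth and bone, Wnt signalling takes part in root formation, in the differentiation of odontoblasts, cementoblasts and osteoblasts, and in periodontal ligament upkeep.

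RefSeq promoter windows on GRCm38.p6 were at hand for 5 of the 10 genes (Sfrp2, Frzb, Wif1, Dkk2 and Axin2). The 250 bases before the start are shown for Sfrp2, the gene that differed most between the libraries in summed mesenchyme, and for Axin2, the feedback target, at chr3:83766071-83766320 and chr11:108920099-108920348, both on the plus strand.
Sfrp2: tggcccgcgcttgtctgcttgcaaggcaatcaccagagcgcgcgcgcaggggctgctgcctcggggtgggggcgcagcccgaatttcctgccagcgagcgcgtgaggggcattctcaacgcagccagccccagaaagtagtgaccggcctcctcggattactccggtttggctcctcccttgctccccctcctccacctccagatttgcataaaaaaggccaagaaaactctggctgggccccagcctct
Axin2: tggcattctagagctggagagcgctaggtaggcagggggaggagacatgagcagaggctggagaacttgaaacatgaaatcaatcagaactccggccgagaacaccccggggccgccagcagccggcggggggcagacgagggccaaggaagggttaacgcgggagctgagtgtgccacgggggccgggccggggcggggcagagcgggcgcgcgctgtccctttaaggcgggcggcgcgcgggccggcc
The TCF/LEF letters CTTTG, followed by any pair of A or T, were searched on both strands, and matches would have been set in capitals. None of the 5 windows held a match, while 14.8% of all 32851 windows of this length did. This says only that these letters are not in these 250 bases.

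After filtering, 8254 Lipo-Clo cells with 26852424 unique molecular identifiers (UMIs) and 8261 Lipo-PBS cells with 25831678 UMIs were used. Dental mesenchyme held 4090 and 3898 of them, and was split into 11 states. Of these, 9 matched a marker list: 2 periodontal ligament-like states (led by Tnn, and by Edil3), 2 papilla or pulp-like states (Lrrc4c, Ctnnd2), 2 fibroblast-like states (Mfap5, Ccl19), and a dental follicle-like (Dio2, Moxd1), an osteoblast or cementoblast-like (Bglap2, Ibsp) and an odontoblast-like state (Dspp). The other 2 stayed unnamed and are called the Mmp13 state and the haemoglobin state after leading genes. The Mmp13 state held 3 papilla or pulp markers, but fell short of the mean log2 value that a name also needed. The haemoglobin state held 5 adventitial or gingival fibroblast markers beside 6 erythroid ones. The 10 genes and the rest of the Wnt list were kept out of the clustering, so no state was defined by them. A mixed cluster with markers of several lineages, mesenchyme among them, held 37 Lipo-Clo and 621 Lipo-PBS cells and was left out of mesenchyme. Mitochondrial genes took 0.370% of UMIs in Lipo-Clo and 1.73% in Lipo-PBS, and the libraries shared 30 barcodes. Haemoglobin UMIs in mesenchyme were at 23199 counts per 1000000 (CPM) in Lipo-Clo and 49755 in Lipo-PBS, and neutrophil list UMIs at 611 and 181 CPM. The part of this carried-over RNA in the results was not tested.

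Blood cells carried a level of these genes that differed by gene and library. It was gathered in few cells. Lipo-PBS B cells held 156 Sfrp2 UMIs in 23 of 279 cells, and Lipo-Clo B cells 204 Wif1 UMIs in 54 of 531. Whether this level comes from free RNA was not tested. B cells, T or NK cells, neutrophils and erythroid cells were taken as lacking these genes, which was not tested. In these classes Sfrp2 stood between 43.6 and 89.6 CPM in Lipo-Clo and between 11.3 and 275 CPM in Lipo-PBS. Wif1 stood between 96.2 and 177 CPM in Lipo-Clo and between 136 and 220 CPM in Lipo-PBS, while Frzb did not pass 2.65 and 7.04 CPM. The highest of these blood classes in the same library is used below as the level that the lower bound of a state's interval must pass for the gene to be read as expressed there.

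In CPM, Sfrp2 and Wif1 had the widest ranges over the states. In the Mmp13 state both were at their highest in both libraries: Sfrp2 reached 2129 CPM in Lipo-PBS (2047 to 2213) and 1587 CPM in Lipo-Clo (1522 to 1653), and Wif1 reached 2009 (1930 to 2090) and 2100 CPM (2026 to 2176). These cells alone held 37.1% of the mesenchymal Sfrp2 UMIs of Lipo-PBS and 49.9% of those of Lipo-Clo, beside 9.43% and 10.8% of all mesenchymal UMIs. Outside this state the genes parted. Sfrp2 was next highest in the Mfap5 fibroblast-like state, at 737 and 1042 CPM, where Wif1 lay under the blood level at 86.1 and 92.2 CPM.
Wif1 was next highest in the osteoblast or cementoblast-like state, at 1654 CPM in Lipo-PBS and 1617 CPM in Lipo-Clo, where Sfrp2 lay at 103 and 73.6 CPM, under the blood level of each library. The Lrrc4c papilla-like state followed for Wif1, with 1088 and 920 CPM. With cells thinned to 1000 UMIs, a Wif1 UMI was seen in 71.7% of osteoblast or cementoblast-like cells of Lipo-PBS and 75.2% of those of Lipo-Clo, against 9.69% and 7.43% of the blood cells.

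**Figure D1:**
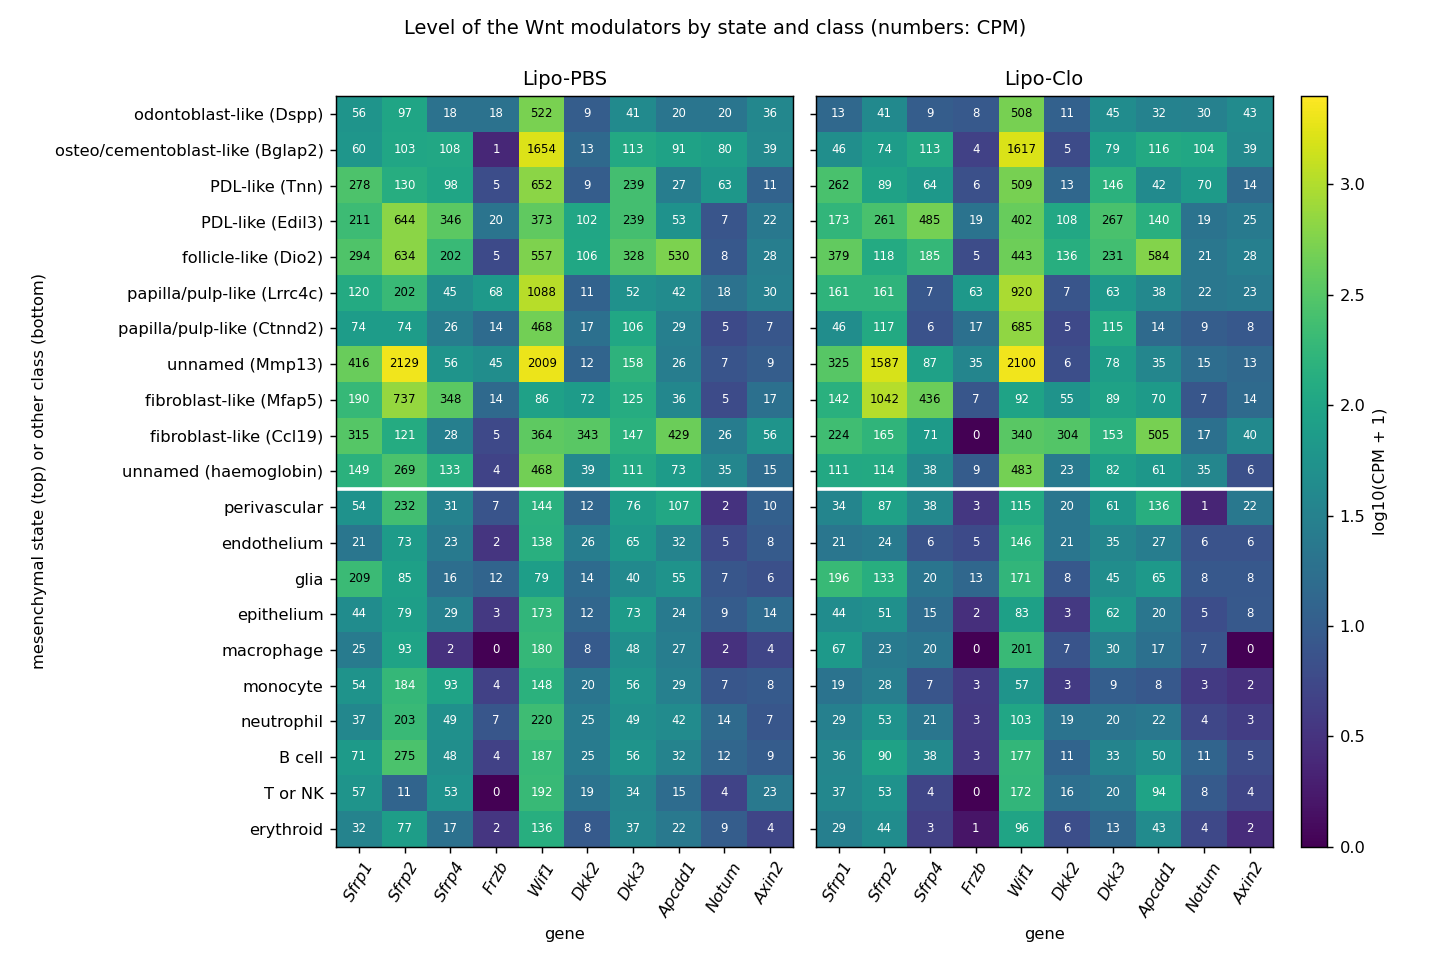
Level of each gene (CPM, printed in each cell, colour on a log10 scale) in the 11 mesenchymal states and 10 other classes, with Lipo-PBS on the left and Lipo-Clo on the right. Sfrp2 and Wif1 stand out in the Mmp13 state, and Apcdd1 in the follicle-like and Ccl19 fibroblast-like states, in both libraries.

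The other Sfrp genes had their own states. Sfrp1 was highest in the Mmp13 state in Lipo-PBS, at 416 CPM (380 to 454), and in the follicle-like state in Lipo-Clo, at 379 CPM (353 to 406). In Lipo-Clo these neighbours in the order overlapped in their intervals, the Mmp13 state standing at 325 CPM. Sfrp1 was not above the blood level in the odontoblast-like, the osteoblast or cementoblast-like and the Ctnnd2 papilla-like states in either library. Sfrp4 was highest in the Mfap5 fibroblast-like and the Edil3 ligament-like states, whose intervals overlapped in both libraries, at 348 and 346 CPM in Lipo-PBS and 436 and 485 CPM in Lipo-Clo.
Frzb was low and concentrated. It stood at 68.0 CPM in Lipo-PBS (53.6 to 85.1) and 63.4 CPM in Lipo-Clo (52.2 to 76.3) in the Lrrc4c papilla-like state, which held 33.2% and 47.9% of its mesenchymal UMIs. Its next state was the Mmp13 state, at 45.5 and 34.5 CPM.

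Dkk2 and Apcdd1 had the Ccl19 fibroblast-like and follicle-like states in common. Dkk2 was highest in the Ccl19 fibroblast-like state, at 343 CPM in Lipo-PBS (290 to 403) and 304 CPM in Lipo-Clo (249 to 367), above the follicle-like state at 106 and 136 CPM. The Edil3 ligament-like state overlapped the follicle-like state for Dkk2, at 102 and 108 CPM, but held Apcdd1 at only 52.5 and 140 CPM. Apcdd1 was highest in the follicle-like state, at 530 CPM (493 to 568) and 584 CPM (552 to 617), with overlapping intervals in the Ccl19 fibroblast-like state at 429 and 505 CPM. No other mesenchymal state passed 91 CPM of Apcdd1 in Lipo-PBS or 140 CPM in Lipo-Clo. Over the 11 states the profiles of the 2 genes had a Pearson correlation of 0.81, the highest of the 45 pairs among these genes, as a description over states of the same libraries. Within the Ccl19 fibroblast-like state, at 1000 UMIs per cell, Apcdd1 was seen in 54.8% of 31 Dkk2 cells of Lipo-Clo against 27.6% of the rest, and in 24 of 48 Dkk2 cells of Lipo-PBS against 29.5% of the rest.
Dkk3 was spread over most states, above the blood level in 9 states of Lipo-PBS and 10 of Lipo-Clo. It reached 328 CPM in the follicle-like state of Lipo-PBS and 267 CPM in the Edil3 ligament-like state of Lipo-Clo.

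Notum and Axin2 were low. Notum was highest in the osteoblast or cementoblast-like state, at 79.5 CPM in Lipo-PBS (65.5 to 95.6) and 104 CPM in Lipo-Clo (87.6 to 122), and next in the Tnn ligament-like state, at 62.7 and 70.0 CPM. In Lipo-PBS those intervals overlapped. Together these states held most of its mesenchymal UMIs, 32.9% and 34.4% in Lipo-PBS and 28.0% and 38.5% in Lipo-Clo. Axin2 did not exceed 56.0 CPM. Its highest states, the Ccl19 fibroblast-like (56.0 CPM in Lipo-PBS, 39.7 in Lipo-Clo), the osteoblast or cementoblast-like (39.4 and 39.0 CPM) and the odontoblast-like (36.0 and 43.3 CPM), could not be ordered within their intervals. In the odontoblast-like state of Lipo-PBS the lower bound, 22.0 CPM, is under the blood level of 22.6 CPM.

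In summed mesenchyme, 1 of the 10 genes passed a 1.5-fold difference between the libraries. All 10 had at least 50 UMIs there, as had 13005 genes in all. For Sfrp2 the level was 345 CPM in Lipo-Clo (335 to 355) against 541 CPM in Lipo-PBS (528 to 554), and the log2 ratio, here always Lipo-Clo over Lipo-PBS, was -0.65 (-0.70 to -0.60). Of all genes tested, 7.21% were this much lower in Lipo-Clo and 3.48% this much higher, 938 and 453 genes. With each cell weighing the same these were 838 and 690 genes. One call among 10 is close to the share of all genes, 10.7% in either direction. A summed level also depends on how many cells of each state a library holds, and with every state given its mean share in both libraries the Sfrp2 ratio was -0.47, within the limit.

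Notum was higher in Lipo-Clo, at 38.5 CPM (35.2 to 42.0) against 26.7 CPM (24.0 to 29.7), a log2 ratio of 0.53 that did not reach the limit of 0.58. Apcdd1 was at 153 CPM (147 to 160) against 113 CPM (107 to 119), a log2 ratio of 0.44. Dkk3 stood lower at 128 against 170 CPM (-0.41), Sfrp4 at 126 against 165 CPM (-0.39) and Dkk2 at 45.6 against 55.3 CPM (-0.28). These 3 intervals lie below 0, yet with the state shares made equal in this way Sfrp4 came to 0.09 and Dkk2 to -0.03. None of the 10 genes was past the limit in that setting, and its values for Dkk3, Notum and Apcdd1 are not given here.
The remaining genes were close to equal in this sum over states. Sfrp1 stood at 209 and 210 CPM (-0.01), Frzb at 17.5 and 17.9 CPM (-0.03), Axin2 at 22.4 and 22.5 CPM (-0.01, interval -0.25 to 0.23), and Wif1 at 807 and 764 CPM (0.08, interval 0.04 to 0.12). The sign of all of these changed under some alternative. The median log2 ratio of the 10 genes was -0.02, as was that of all 13005 genes.

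**Figure D2:**
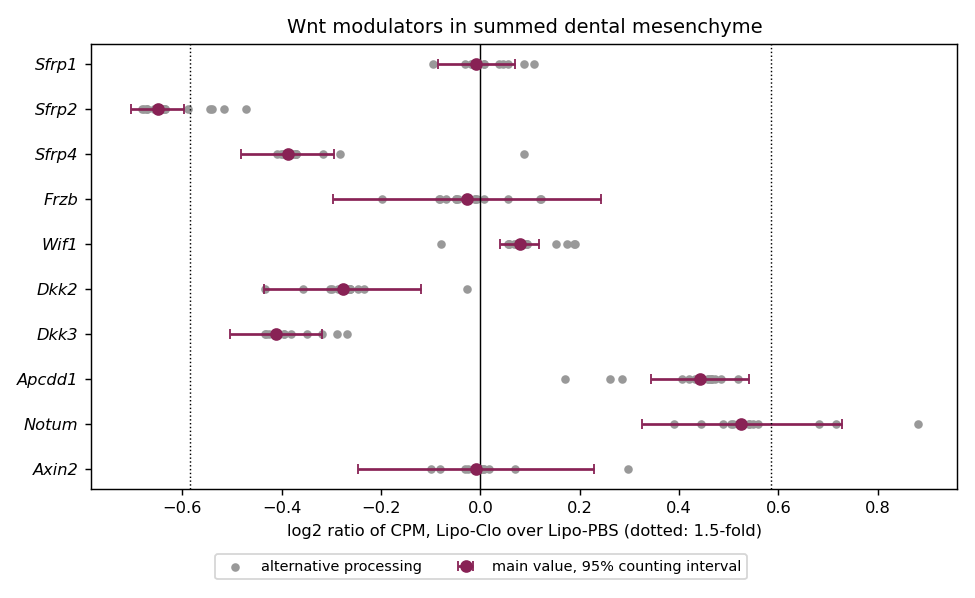
Log2 ratio of CPM, Lipo-Clo over Lipo-PBS, of each gene in summed dental mesenchyme. Large points are the reported values with 95% counting intervals, small grey points the same value under other processing, and dotted lines mark 1.5-fold. Sfrp2 lies past the lower line, and some grey points bring it back within.

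Within states the Sfrp2 difference was uneven. In the follicle-like state Sfrp2 stood at 118 CPM in Lipo-Clo (253 UMIs in 567 cells) and 634 CPM in Lipo-PBS (919 UMIs in 425 cells), and the log2 ratio was -2.42 (-2.63 to -2.22). In that state 14.2% of 7413 genes were past the limit in this direction. With the mean over all blood cells taken off (0.19 UMIs per cell in Lipo-Clo and 0.38 in Lipo-PBS), 0.26 and 1.78 UMIs per cell remained. Haemoglobin UMIs of these cells were at 9441 and 38817 CPM and collagen UMIs at 84857 and 69601 CPM, and their part in the result was not tested.
The 2 libraries filled this state differently. Mesenchyme clustered anew at a finer resolution gave a part led by Moxd1, with 474 Lipo-Clo and 146 Lipo-PBS cells, and a part led by Dio2, with 102 and 287 cells. These parts are not an exact split of the follicle-like state, since together they hold more cells than it does. Sfrp2 was lower in Lipo-Clo in both, at 93.0 against 245 CPM (log2 ratio -1.40, -1.73 to -1.06) and at 259 against 869 CPM (-1.74, -2.09 to -1.42). In the Moxd1 part, 245 CPM is under the Lipo-PBS blood level of 275 CPM, and 93.0 CPM lies near the Lipo-Clo level of 89.6 CPM. The share of all genes past the limit is not given for these parts.

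The same direction was seen in the Edil3 ligament-like state, at 261 CPM in Lipo-Clo against 644 in Lipo-PBS (-1.30, -1.54 to -1.07), where 929 of 5998 genes were this much lower, and, at a smaller size, in the Mmp13 state (-0.42, -0.51 to -0.34). In the haemoglobin and odontoblast-like states the ratios were -1.24 and -1.26, with all levels under the Lipo-PBS blood level of 275 CPM, and 16.8% and 8.09% of genes were this much lower there. The Mfap5 fibroblast-like state went the other way, with 1042 CPM in Lipo-Clo against 737 CPM (0.50, 0.38 to 0.62). In all, Sfrp2 was lower in Lipo-Clo beyond counting error in 8 of 11 states and higher in 2, the other being the Ctnnd2 papilla-like state (0.65, 0.03 to 1.30), where 7.6% of genes were this much higher. Of the 8, the Tnn ligament-like, osteoblast or cementoblast-like and Lrrc4c papilla-like states also had Lipo-PBS levels under 275 CPM (130, 103 and 202). The follicle-like, Edil3 ligament-like and Mmp13 states lay above it. Sfrp2 was lower among B cells (-1.62), neutrophils (-1.94) and erythroid cells (-0.81) too, and higher among T or NK cells on 13 and 3 UMIs. Most other classes went the same way: monocytes (-2.74), macrophages (-1.99), endothelium (-1.63), perivascular cells (-1.42), epithelium (-0.64), dividing cells (-0.41) and the mixed cluster (-0.66). Glia were higher (0.65). In monocytes 30.6% of genes were past the limit downwards. A lower Sfrp2 level in Lipo-Clo is thus not particular to the follicle-like state. Whether the blood level had a part in the state ratios was not tested. Whether the states differ in their Sfrp2 ratio was not tested. Opposite signs beyond counting error in different states, above the blood level in the higher library, were seen for 4 of the 10 genes and for 7.3% of the 3863 genes that could meet these criteria. The blood level was applied only in the library whose higher value also sets the sign, a choice made after seeing the data. Genes with more UMIs have narrower intervals, so the 2 shares are not a like comparison.
In single cells of the follicle-like state of Lipo-PBS, thinned to 1000 UMIs, 105 cells had an Sfrp2 UMI and 49 an Sfrp4 UMI, and 0 of 406 had both. Apcdd1 was seen in 49.5% of the Sfrp2 cells and 27.2% of the rest.

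Gm26771, a gene of GENCODE M21 that overlaps the end of Sfrp2 on the opposite strand, had the profile most like that of Sfrp2 (Pearson correlation 0.90 over 22 classes and states, among 11557 genes). Its mesenchymal level was 17.2 CPM in Lipo-Clo against 28.4 in Lipo-PBS, and its UMIs came to 5.15% of those of Sfrp2. Whether the counting used strand is not given in the sources used here, so reads of the 2 genes cannot be told apart. The same holds for Notum with Notumos and Myadml2os, at 2.80% and 0.58% of its UMIs, and for Axin2 with Gm11670.

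**Figure D3:**
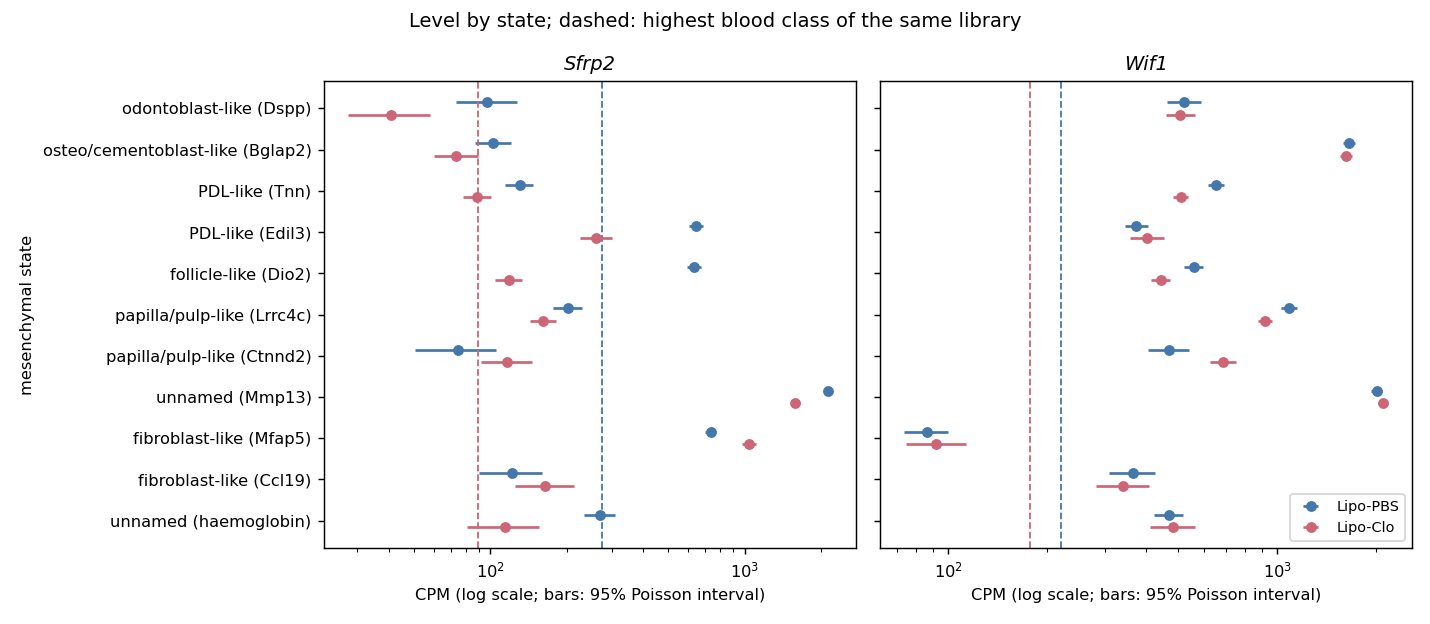
Sfrp2 (left) and Wif1 (right) in each mesenchymal state, in CPM on a log axis, with 95% Poisson intervals; blue is Lipo-PBS, red Lipo-Clo, and the dashed lines give the highest blood class of each library. The follicle-like state shows Sfrp2 at 634 CPM in Lipo-PBS against 118 CPM in Lipo-Clo, and Wif1 at 557 against 443 CPM.

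Wif1 was past the limit in none of the 11 states, its log2 ratios lying between -0.36 in the Tnn ligament-like state (509 against 652 CPM) and 0.55 in the Ctnnd2 papilla-like state (685 against 468 CPM). In the osteoblast or cementoblast-like state it was at -0.03 (-0.12 to 0.05). Sfrp1, equal in the sum, was lower in Lipo-Clo in 8 of the 10 states with at least 50 UMIs, 3 of them beyond counting error. It was higher in 2, both beyond counting error, and the median over states was -0.36. Its 1 ratio past the limit, -0.69, was in the Ctnnd2 papilla-like state, where it was not above the blood level. There 8.09% of genes were this much lower.
Apcdd1 was higher in Lipo-Clo in 7 of the 9 states with at least 50 UMIs, and past the limit in 3. The largest ratio was in the Edil3 ligament-like state, at 140 against 52.5 CPM (1.41, 0.98 to 1.85), followed by the Mfap5 fibroblast-like (69.9 against 36.5 CPM) and Tnn ligament-like states (41.7 against 26.6 CPM). Of all genes, 4.52%, 3.4% and 6.56% were this much higher in these states, and in the last 2 the Apcdd1 level was under the highest blood class of the library. In the Edil3 state of Lipo-PBS the lower bound, 41.8 CPM, is also under the blood level of 42.3 CPM. In the states where Apcdd1 is high, the differences were small: 584 against 530 CPM in the follicle-like state (0.14) and 505 against 429 CPM in the Ccl19 fibroblast-like state (0.23). The Lipo-Clo library also held more follicle-like cells, 567 against 425, and that state gave 61.1% of the mesenchymal Apcdd1 UMIs of the library.

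Notum was higher in Lipo-Clo in all 4 states with at least 50 UMIs, by 0.39 in the osteoblast or cementoblast-like state (0.02 to 0.75) and 0.16 in the Tnn ligament-like state (-0.18 to 0.50). Its largest ratio, 1.47 in the follicle-like state, rests on 45 and 11 UMIs in a state where 7.88% of genes were this much higher, and its level of 7.59 CPM in Lipo-PBS is under the blood level of 14.1 CPM. Dividing cells, a cluster apart that carries mesenchymal markers, held 64 Notum UMIs in 184 Lipo-Clo cells and 10 in 168 Lipo-PBS cells (60.3 against 13.9 CPM, log2 ratio 2.12, 1.15 to 3.25), where 10.6% of genes were past the limit in this direction. The Lipo-PBS level of these cells is also under the blood level of 14.1 CPM.
Dkk3 was past the limit in the Tnn ligament-like state, at 146 against 239 CPM (-0.72, -0.91 to -0.52), and in the Mmp13 state, at 78.1 against 158 CPM (-1.02, -1.36 to -0.67). Those states had 11% and 11.1% of genes past the limit in this direction. In the Edil3 ligament-like state Dkk3 was at 267 against 239 CPM (0.16).
Sfrp4 differed in direction by state, with 485 against 346 CPM in the Edil3 ligament-like state (0.49, 0.29 to 0.69) and 64.0 against 97.8 CPM in the Tnn ligament-like state (-0.61, -0.92 to -0.31). In the Mmp13 state it was at 87.0 against 56.2 CPM (0.63), not above the blood level in Lipo-PBS, and 4.93% of genes were past the limit upwards there. Its ratio of -2.60 in the Lrrc4c papilla-like state compares 7.36 with 44.7 CPM, both under the blood level of their library, and 5.59% of genes were this much lower there. For Axin2 all 6 states with at least 50 UMIs had intervals that include 0, and for Frzb both did.

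**Figure D4:**
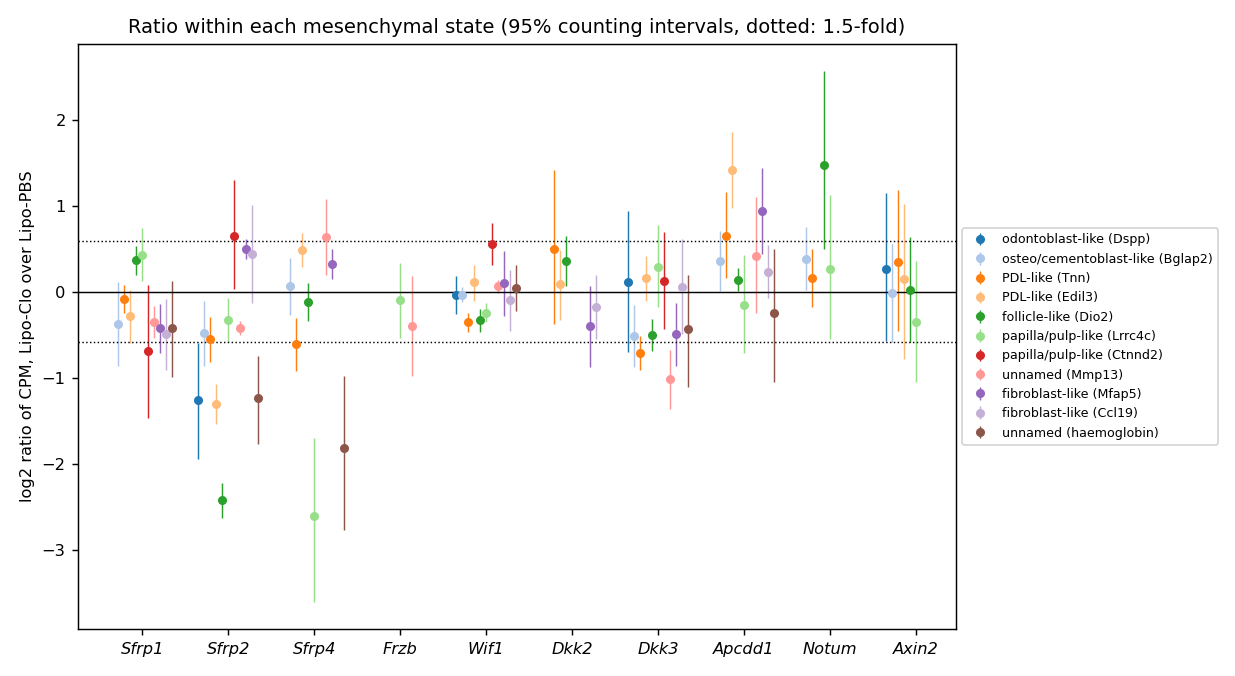
Log2 ratio of CPM, Lipo-Clo over Lipo-PBS, of each gene within each mesenchymal state that holds at least 50 of its UMIs over both libraries, with 95% counting intervals and dotted lines at 1.5-fold. The follicle-like state (green) stands apart for Sfrp2 at -2.42, while the Wif1 points stay within the lines.

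Outside the mesenchyme most of these transcripts stayed within a bound for carried-over RNA. For each class the bound was set by its collagen UMIs and the ratio of each gene to collagen in mesenchyme of the same library. This ratio is taken over all states together, so the bound is not the most that carried-over RNA could give. Blood classes passed it too, such as Sfrp2 in Lipo-PBS B cells at 1.60 times (1.36 to 1.87). Apcdd1 in Lipo-Clo erythroid cells stood at 2.25 times (1.78 to 2.82). Of 110 pairs of gene and class, 10 passed the bound in both libraries and 21 in 1 library. Taken by CPM without its interval, 7 of them passed both the bound and the highest blood class in both libraries.
Glia held Sfrp1 at 196 CPM (Lipo-Clo) and 209 CPM (Lipo-PBS), 3.23 times (2.55 to 4.03) and 4.72 times (3.99 to 5.56) the bound. Perivascular cells held Apcdd1 at 136 and 107 CPM, 4.09 times (3.35 to 4.94) and 3.94 times (3.33 to 4.63) the bound. Dkk3 passed it in epithelium (61.9 and 73.3 CPM), perivascular cells (61.1 and 76.4 CPM) and endothelium (34.9 and 64.9 CPM), and Dkk2 in endothelium (20.6 and 26.3 CPM). The seventh pair is Sfrp1 in dividing cells. These cells carry mesenchymal markers themselves, so a bound for carried-over mesenchymal RNA says little about them.
Axin2 in epithelium was 2.18 and 3.20 times the bound, on 21 and 38 UMIs, but in Lipo-PBS did not pass the highest blood class. That class was T or NK cells, at 22.6 CPM on 6 UMIs, itself 4.05 times the bound (1.49 to 8.81). Whether these cells lack Axin2 was not tested. Sfrp2 in epithelium and endothelium did not pass the bound in either library. In perivascular cells of Lipo-PBS Sfrp2 stood at 232 CPM, 1.78 times the bound, but under the 275 CPM of the B cells of that library.

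**Figure D5:**
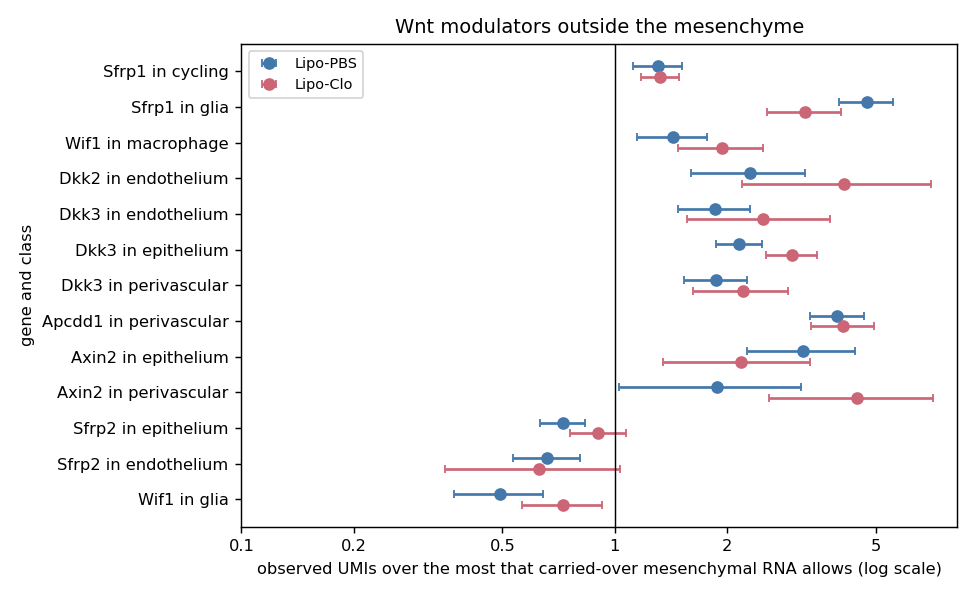
UMIs of a gene in a class outside mesenchyme over the bound for carried-over mesenchymal RNA (log axis, 95% counting intervals), with blue for Lipo-PBS, red for Lipo-Clo and a line at 1. The upper 10 rows are the pairs above the bound in both libraries, and the last 3 are pairs that are not; Sfrp1 in glia and Apcdd1 in perivascular cells lie farthest above in Lipo-PBS.

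Other genes of the pathway, 79 in a list ordered by role, were read beside these 10. In mesenchyme 62 had at least 50 UMIs, of which 4 were past 1.5-fold higher in Lipo-Clo and 7 lower, beside 3.48% and 7.21% of all genes, and the median log2 ratio was -0.01. Among 10 ligands, Wnt10a stood at 30.4 against 17.8 CPM (0.77) and was highest in the odontoblast-like state, and Wnt4 at 11.6 against 6.00 CPM (0.95), while Wnt9a stood at 10.3 against 18.6 CPM (-0.86) and Wnt16 at 2.32 against 8.26 CPM (-1.83).
Of 15 receptors, Fzd4 (7.11 against 12.4 CPM, -0.80) and Lrp6 (67.3 against 106 CPM, -0.65) were past the limit, and both were highest in the Mfap5 fibroblast-like state. That state held 418 Lipo-Clo and 746 Lipo-PBS cells. All ratios of the list are of summed mesenchyme and also depend on such state shares. Their intervals and their values at equal state shares are not given here. The R-spondins amplify Wnt signals through the Lgr receptors. Rspo1 stood at 22.1 against 39.4 CPM (-0.84) and Lgr5 at 21.0 against 39.9 CPM (-0.92), while Rspo4 stood at 7.64 against 3.20 CPM (1.26).
Among other inhibitors, Dkk1 stood at 3.52 against 1.56 CPM (1.17) and Trabd2b, a protease that cleaves Wnt ligands, at 6.29 against 12.6 CPM (-1.01). None of 11 cytoplasmic, 8 nuclear and 4 further target genes was past the limit.

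The genes with the most similar profiles over the same 22 classes and states were Antxr1 (Pearson correlation 0.94), Wls and Mmp14 for Dkk3, Cdh11 (0.88), Cdh18 and Colec12 for Wif1, and Tspan11 (0.89), Spon2 and Arsi for Sfrp4. For Dkk2 they were Ccn5 (0.87), Dpt and Loxl1, for Sfrp1 Mfap2 (0.87), Tpbg and Srpx, and for Axin2 Tbrg1 (0.87), Dsel and Sec16b. For Frzb they were Matn4 (0.84), Lrrtm4 and Mex3a, for Apcdd1 Rorb (0.83), Cyp26b1 and C1qtnf7, and for Notum Lamc3 (0.81), Kazald1 and Zfp469. For Sfrp2, Angptl4 was named beside Gm26771. These are descriptions over classes that share libraries and depth.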

How the data were processed

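What the authors deposited are UMI counts, 1 table per library and without normalization. The file headers name Cell Ranger 8.0.0, while the submitters' processing notes list Cell Ranger 3.1.0, Seurat 3.1.1 and GRCm39. The annotation and the strand setting are not given in the sources used here. The 10 genes, the Wnt list and the markers were chosen with earlier results of these data known.

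Depth was 31053404 UMIs in 9362 cells (Lipo-Clo) and 30537834 UMIs in 9653 cells (Lipo-PBS), so counts carry exact Poisson intervals and shares exact Clopper-Pearson intervals. A cell needed 200 genes or more, with mitochondrial UMIs not above 20%. Scrublet (scanpy 1.11.5) set a threshold that called under 0.5% of either library, so the highest scores, 632 and 633 cells, were left out instead. Cells of the 2 libraries were clustered jointly, with no correction for library, on 2000 variable genes, 30 components and 20 neighbours (leidenalg 0.10.2, resolution 1, seed 1), and mesenchyme again with 20 components at 0.6. A marker counted if 2-fold over the median cluster and in at least 10% of cells, and a name needed 3. A state name also needed a mean log2 value of at least 1 for its list. States with erythroid markers among their top genes stayed unnamed. UMIs were summed per class or state and scaled to 1000000. Ratios have the exact conditional interval of 2 Poisson counts, and genes with at least 50 UMIs over both libraries were used. With 1 library per condition no p-values are given. Named genes are the 10, Wnt list genes past 1.5-fold, and for each of the 10 the 3 genes with the highest Pearson correlation of log2(CPM + 1) over classes and states with at least 50 cells. One of these is not reported here. The ratio and interval were tested on simulated data. Alternatives included edgeR 4.0.16 and DESeq2 1.42.0 scaling factors, cell filters, clustering resolution, thinning to 1000 UMIs and limits of 1.2-fold and 2-fold.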

Additional observations from a re-analysis of the deposited data

Results flagged for a closer look

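For 4 of the genes the log2 ratio of Lipo-Clo over Lipo-PBS had opposite signs in different mesenchymal states, each beyond counting error and in states where the gene passed the blood level in the library where it is higher. Of the 3863 genes that could meet these criteria, 282 did (7.3%), and genes with more UMIs have narrower intervals. The blood level criterion and this set of genes were chosen after seeing the data. None of these differences between states was tested, and each value rests on 1 library per condition. Sfrp2 stood at -2.42 in the dental follicle-like state and at 0.648 in the Ctnnd2 papilla or pulp-like state, the latter on 76 and 31 UMIs in a state where 7.6% of genes were past 1.5-fold higher. In that Ctnnd2 state the Lipo-PBS level of Sfrp2, 74.4 CPM, is under the blood level of 275 CPM. Sfrp4 stood at -1.81 in the haemoglobin state and at 0.631 in the Mmp13 state. Sfrp1 stood at -0.491 in the Ccl19 fibroblast-like state and at 0.429 in the Lrrc4c papilla or pulp-like state. Wif1 stood at -0.357 in the Tnn periodontal ligament-like state and at 0.551 in the Ctnnd2 papilla or pulp-like state. The haemoglobin state held 69 Lipo-Clo and 207 Lipo-PBS cells.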

How the results depend on the processing

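No paired analysis was possible because there is only 1 library for each condition, and leaving out a library would end the comparison. The 1 gene lower past 1.5-fold, Sfrp2, became 0 with cells thinned to 1000 UMIs and with every state given its mean share in both libraries. It also became 0 with a mean over blood cells subtracted per cell, with the dividing and mixed clusters counted as mesenchyme, and at 2-fold. Its log2 ratio lay between -0.68 and -0.47 over all alternatives. The 0 genes higher became 1 (Notum) with each cell weighing the same, with the mean over blood cells subtracted (0.88) and with the dividing and mixed clusters counted. The last 2 settings were chosen after seeing the data. The mixed cluster was very uneven, with 37 Lipo-Clo and 621 Lipo-PBS cells, and held Sfrp2 at 170 and 268 CPM. At 1.2-fold 4 of the 10 genes were lower and 2 higher. Of all genes, those lower and higher in Lipo-Clo numbered 4756 and 3532 with no filter on low counts, 193 and 31 among genes seen in at least 10% of cells, 3093 and 2711 at 1.2-fold, and 266 and 96 at 2-fold, and 690 were higher with each cell weighing the same. TMM factors gave 901 and 504 genes and DESeq2 factors 901 and 505, with Sfrp2 the 1 gene of the 10 past the limit under both. The cause of these shifts was not tested. The single library per condition and the level in blood cells, not the UMIs of the abundant genes, limit what can be read. Frzb, Notum and Axin2 are also limited by counts of under 60 UMIs in most states.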
